A study of Rattus norvegicus with 12 samples.

Results

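The comparison described here set T cells from antibiotic-treated lungs against T cells from control lungs 1 day after immunization. It used the 6 day 1 libraries of a series of 12, chosen by their sample labels as 3 labelled NEO and 3 labelled PBS. The animals were wild-type LEW/Crl rats, 6 to 8 weeks of age. For 7 days their lungs received either the antibiotic labelled NEO or phosphate-buffered saline (PBS) through the trachea. Both groups of day 1 then were immunized by the same route with MBP (myelin basic protein, from the sheath around nerve fibres). Fluorescently labelled T cells reactive to MBP were sorted from the digested lungs 1 day later. The other 6 libraries, 3 NEO and 3 PBS, came from day 0, after the same pretreatment, and are used here only to set values beside those of day 1. The labels do not say whether cells of day 0 were taken before or just after the immunization, nor whether each library came from 1 animal. In each group the libraries carry lung numbers 1 to 3.

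T cells that meet their antigen leave rest within hours. Their receptor signals through kinases and calcium to factors that switch on cytokine, growth and surface receptor genes, while genes of the resting state are turned down. Microbial products in the airways act mainly on the cells that present antigen, and T cells can be affected through these cells. Whether an antibiotic in the lung alters the RNA content of the T cells after they have met antigen there is the question this comparison addresses.

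The files list genes by rat Ensembl identifier, and 0 of 32623 identifiers could be matched to a symbol with the gene table used here. Genes are therefore described by their levels, by their change between the days and by their behaviour in each library, and 4 identifiers are given as examples. No gene could be assigned to a pathway, and the sorted cells could not be checked against T cell markers or against markers of macrophages, B cells or lung epithelium. The part of other cells in any difference below was not tested. In sorted bulk RNA, fewer cells of a type and less RNA per cell cannot be told apart.

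The day 1 libraries held 7776335, 14952352 and 12741142 counts in NEO and 14564360, 15869946 and 15474167 in PBS, for numbers 1, 2 and 3. In each number the NEO library was the shallower one. Levels are given as CPM, the counts of a gene scaled to the library's total, and a gene with no count could have had up to 3, or 0.189 to 0.386 CPM by library. CPM are further scaled by TMM, a correction for differences in RNA composition between libraries. Of the genes with a count on day 1 (22803), 12075 had enough counts to be tested.

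On day 1 the lung number had far more weight in the variation between libraries than the antibiotic. It took up 76.4% of the squared variation of log2 CPM over the 12075 genes, against 9.26% for NEO or PBS and 14.4% for the rest. These shares are not divided by their degrees of freedom, which are 2 for the lung number, 1 for NEO or PBS and 2 for the rest. Libraries of the same number correlated at 0.983 to 0.987 between the arms, and libraries of the same arm at 0.933 to 0.987. Deviations from the group mean correlated between same-numbered NEO and PBS libraries at 0.529, 0.666 and 0.780. Numbers 1 and 2 also correlated across the arms, at 0.329 for NEO 1 with PBS 2 and 0.32 for NEO 2 with PBS 1, while number 3 correlated with the others at -0.532 to -0.658. NEO 2 lay nearer to NEO 1 than to PBS 2, with a chi-square per degree of freedom of 14.1 against 28. Part of the pairing is thus the contrast of number 3 with numbers 1 and 2. The labels do not say what the lung number stands for, so the pairing rests on these data alone. The number was entered into the model as a pair, and p-values of the paired fit hold only if it marks something that the 2 libraries shared.

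In the paired fit, T cells of NEO lungs differed from those of PBS lungs in a small group of genes. The quasi-likelihood test of edgeR, adjusted by Benjamini-Hochberg, called 78 of 12075 genes (0.646%), of which 50 were higher in NEO (0.414%) and 28 lower (0.232%). The differences were mostly modest. The median log2 difference was 0.72 among the genes that were higher and -0.75 among those that were lower, with a median standard error of 0.11. A difference of at least 1.5-fold was found for 34 of the higher and 22 of the lower genes, at least 2-fold for 11 and 4, and at least 4-fold for 2 and 2. The smallest called differences were 0.46 and -0.44. The median log2 difference of all genes tested was 0.00394 after the TMM scaling, which centres it.

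Without the pairing the result depended on the tool. The unpaired edgeR fit of the same 6 libraries called 0 genes, with a smallest adjusted p of 0.836 and 700 genes (5.80%) at an unadjusted p under 0.05. The paired fit had 2080 such genes (17.2%), 1053 higher and 1027 lower in NEO. Without pairing, limma voom also called 0 genes, while DESeq2 called 30, of which 22 were among the 78. The median standard error over the 78 genes was 0.23 without the pairing and 0.11 with it, but the paired test chose these genes. Over all genes tested it was 0.161 without the pairing and 0.115 with it. When the day 0 libraries were added to the fit, 0 genes were called with the pairing kept (728 at an unadjusted p under 0.05) and 0 without it (517). The count of 78 is that of the paired edgeR fit of the 6 day 1 libraries.

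**Figure D1:**
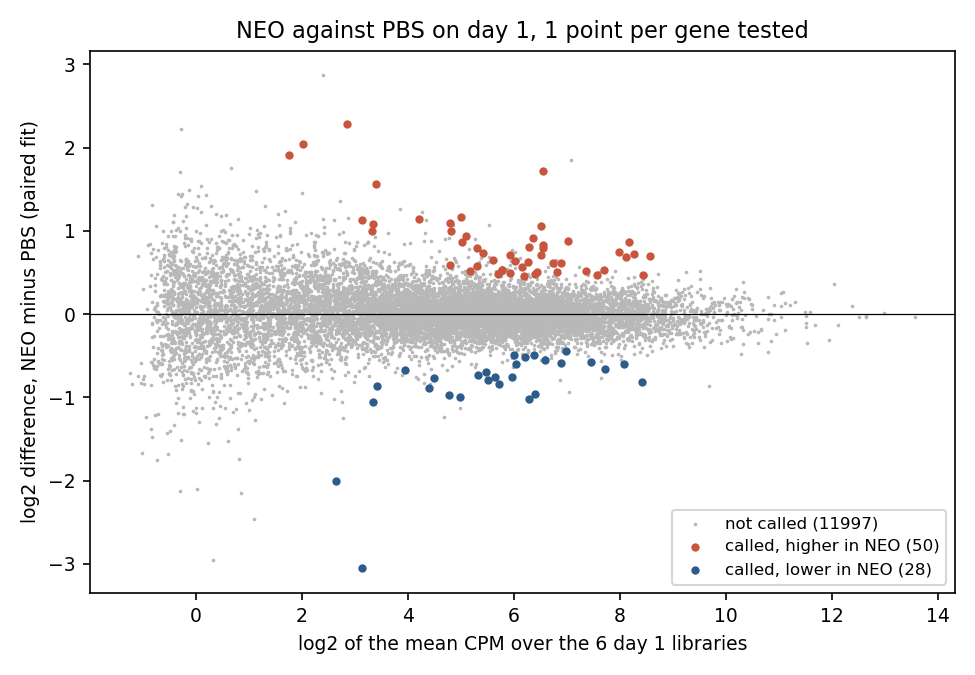
Each point is 1 of the 12075 genes tested, with the log2 of its mean CPM over the 6 day 1 libraries on the x axis and the log2 difference of NEO minus PBS from the paired fit on the y axis. The 50 genes called higher in NEO and the 28 called lower lie on both sides of 0, mostly within 2-fold and mostly at middle to high levels.

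The called genes were better expressed than the average gene. Their median level in the higher group was 82.4 CPM for the 50 genes and 71.2 CPM for the 28, where the median over all genes was 29.6 CPM. Only 2 of the 50 and 1 of the 28 stayed under 10 CPM, and 21 and 9 exceeded 100 CPM. When genes were split by level into 4 sets, 0.0994% of the lowest set (median 2.01 CPM) were called, then 0.497%, and 0.994% of both upper sets (medians 47.5 and 151 CPM). The median standard error was 0.39 in the lowest set and 0.09 in the highest. In the paired fit the 95% interval excluded a 2-fold difference for 82.2% of all genes, and one of 1.5-fold for 65.1%. In the unpaired fit it excluded a 2-fold difference for 75.4%. For the other genes of each fit a difference of that size was not bounded at this depth and spread. No gene went from absence in 1 arm to clear presence in the other: 0 genes had at least 10 counts in each PBS library and none in NEO, and 0 the reverse.

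Together the 50 higher genes took 0.572%, 0.742% and 0.469% of all counts in the NEO libraries numbered 1, 2 and 3, and 0.391%, 0.412% and 0.276% in PBS. The 28 lower genes took 0.185%, 0.152% and 0.187% in NEO and 0.271%, 0.274% and 0.284% in PBS. These sums describe genes chosen on the same libraries and are no further test. They show that the called genes were a small part of the RNA in either arm.

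All 78 genes had the same direction in all 3 pairs of libraries. Over all genes tested, 20.1% were higher in NEO in all 3 pairs and 17.6% lower. The NEO and PBS values did not overlap at all for 25 of the 50 higher and 22 of the 28 lower genes, against 11% of all genes. The paired contrast chose these genes, so nothing is read from these counts. The size of the difference varied between the pairs. The median log2 difference of the 50 genes was 0.53 in number 1, 0.82 in number 2 and 0.67 in number 3. That of the 28 genes was -0.61, -0.94 and -0.55, so both groups differed most in number 2. The values in single genes ran from 0.04 to 3.15 among the higher genes and from -0.26 to -4.05 among the lower ones.

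**Figure D2:**
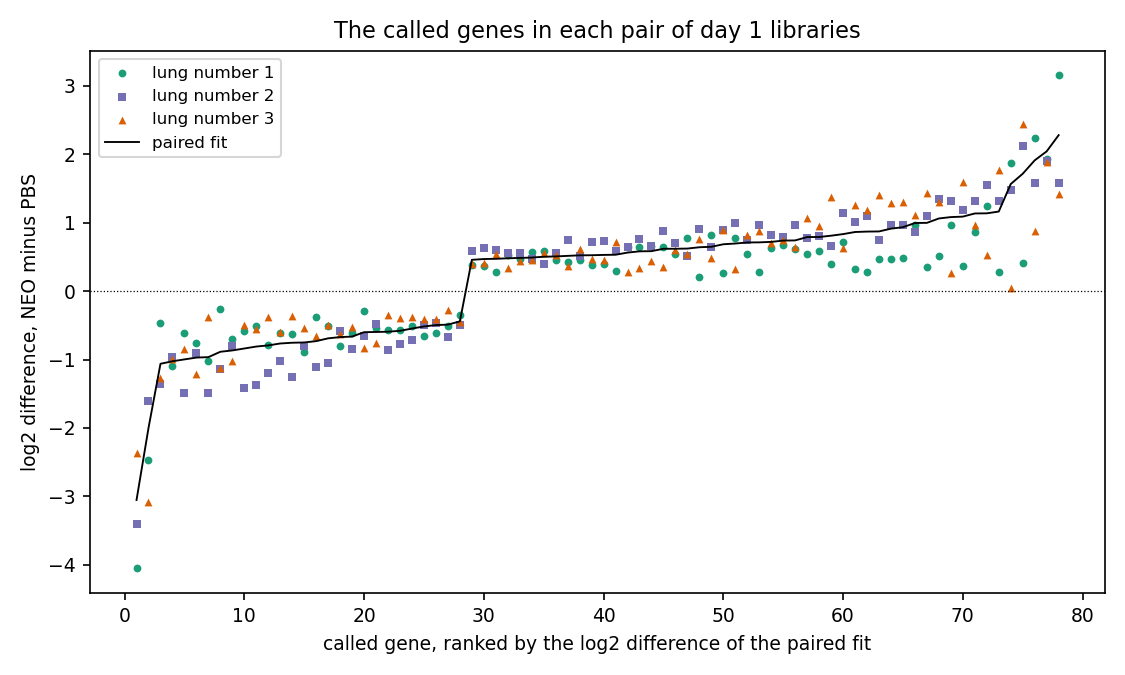
The 78 called genes are ranked on the x axis by the log2 difference of the paired fit (black line), and the y axis gives the log2 difference of NEO minus PBS in each lung number. All points of the 28 lower genes lie below 0 and all points of the 50 higher genes above it, with the smallest value, 0.04, in number 3.

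The planned naming rule took, in each direction, the called genes with the largest differences and those with the smallest p. It asked for a mean of at least 50 counts per library in the higher group and the same direction in all pairs. All 78 met these conditions, and the first 2 by size of difference in each direction are given here. Of these genes, all 4 come from the first part of the rule, and the part on the smallest p gave no identifiers. All 4 were at low levels, with at most 27.0 CPM in any day 1 library and 2.66 CPM in any day 0 library. What these identifiers encode, and whether they share reads with similar or overlapping genes, was not examined. Their values by library are the basis of the calls and are given as a description.

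ENSRNOG00000017786 had the largest difference among the called genes and was lower in NEO. Its day 1 values were 0.633, 0.516 and 5.14 CPM in NEO and 12.8, 6.88 and 27.0 CPM in PBS, in the order of the lung numbers. The groups did not overlap, and number 3 was the highest library in both. On day 0 it had between 0.237 and 0.820 CPM in all 6 libraries, with 20 counts in the 3 NEO libraries and 21 in the 3 PBS libraries, so NEO numbers 1 and 2 stayed at the level of day 0 on day 1. The log2 difference was -3.05 ± 0.29 (SE), an 8.29-fold lower level (edgeR adjusted p = 0.00375, paired), with a 95% interval of -3.70 to -2.41. The unpaired fit gave an unadjusted edgeR p of 0.0171 and an adjusted p of 0.836. Pair by pair, PBS was 20.3, 13.3 and 5.26 times as high as NEO, with 95% counting intervals of 8.52 to 63.1, 6.53 to 31.6 and 4.03 to 6.95, which cover counting error only.

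ENSRNOG00000012807 had the largest difference among the genes higher in NEO. It reached 21.4, 13.5 and 1.28 CPM in NEO and 2.28, 4.40 and 0.385 CPM in PBS. The groups overlapped, because NEO number 3 lay below PBS numbers 1 and 2, and number 3 was the lowest library in both arms. On day 0 it was at 0.149 to 2.66 CPM. The paired log2 difference was 2.28 ± 0.33 (SE), 4.85-fold (edgeR adjusted p = 0.0178, paired). The ratio of NEO to PBS was 9.41 in number 1, 3.07 in number 2 and 3.34 in number 3, the last from 16 and 6 counts with a counting interval of 1.24 to 10.4. The unpaired fit gave an unadjusted edgeR p of 0.0678. Without number 1 the call ended (log2 difference 1.62, edgeR adjusted p = 0.113).

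ENSRNOG00000012804 was the second of the genes higher in NEO. Its values were 10.4, 8.07 and 1.12 CPM in NEO and 2.62, 2.04 and 0.192 CPM in PBS, again with number 3 lowest in both arms and with overlap of the groups. On day 0 it had between 0.0738 and 1.05 CPM. The paired log2 difference was 2.04 ± 0.29 (SE), 4.12-fold (edgeR adjusted p = 0.0178, paired), and the ratios in the 3 pairs were 3.96, 3.95 and 5.84. The last of these rests on 14 counts in NEO and 3 in PBS, with a counting interval of 1.63 to 31.7. The unpaired fit gave an unadjusted edgeR p of 0.0873 and an adjusted p of 0.836. Its call also ended without number 1, with a log2 difference of 2.08 ± 0.45 (SE, edgeR adjusted p = 0.137).

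ENSRNOG00000019846 was the second of the genes lower in NEO. It had 0.127, 8.39 and 0.0803 CPM in NEO and 1.38, 25.8 and 1.80 CPM in PBS. NEO numbers 1 and 3 had 1 count each, and the library numbered 2 was the highest in both arms by far. The groups overlapped. The paired log2 difference was -2.0 ± 0.35 (SE, edgeR adjusted p = 0.0379, paired). Only number 2 had counts enough for a close ratio, 3.08 with a counting interval of 2.52 to 3.78. In numbers 1 and 3 the ratios of PBS to NEO were 10.9 and 22.4, with counting intervals of 1.74 to 451 and 3.70 to 915. The unpaired fit gave an unadjusted edgeR p of 0.34 and an adjusted p of 0.887, with a standard error of 1.65. Without number 1 the call ended at a log2 difference of -1.89 ± 0.34 (SE, edgeR adjusted p = 0.0636). Without number 2 the difference was -3.90. In the unpaired fit without PBS number 2 the direction turned, with a log2 difference of 0.90.

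**Figure D3:**
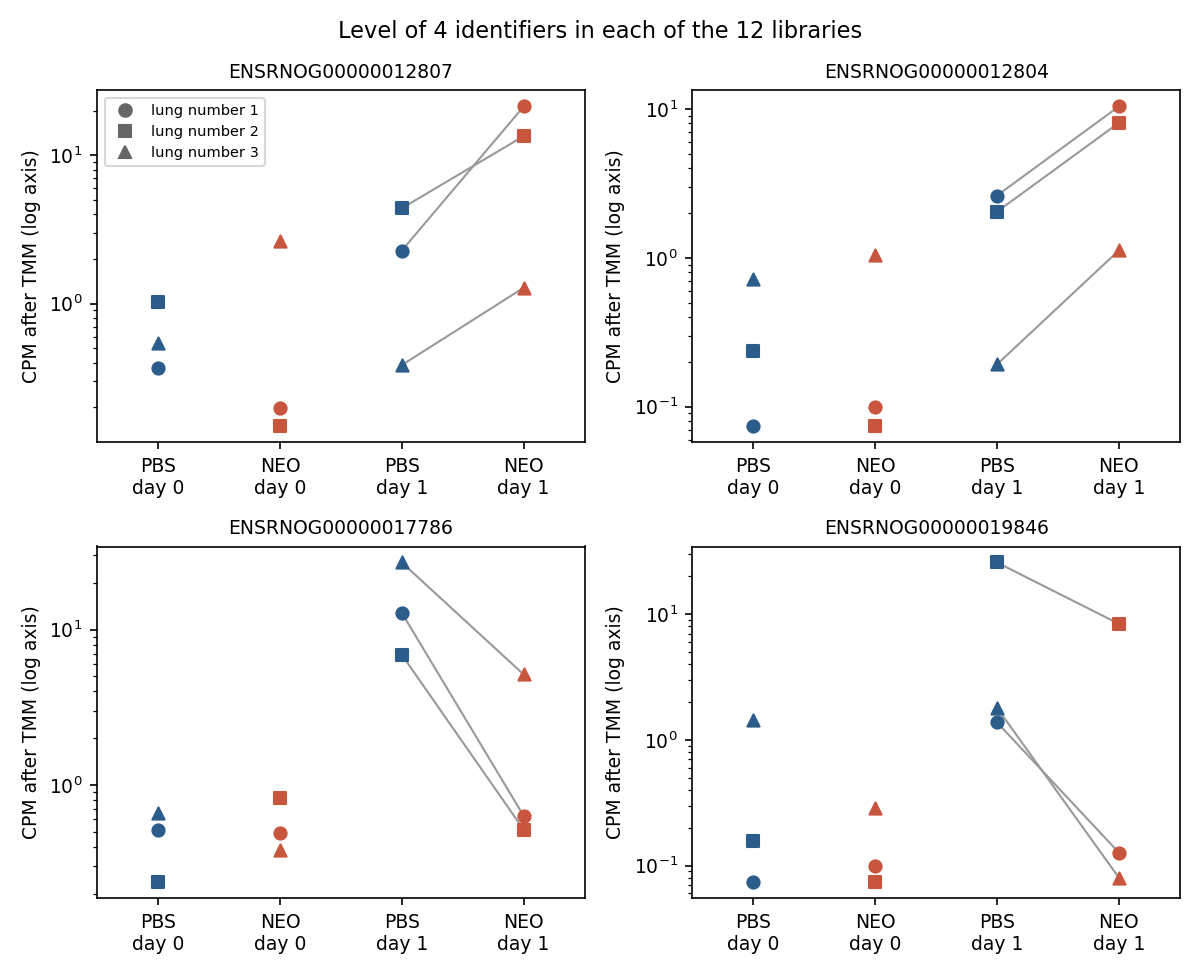
Each panel gives 1 identifier, with the 4 groups on the x axis and the CPM after TMM on a log axis, 1 symbol per library (circle, square and triangle for lung numbers 1, 2 and 3) and lines that join the NEO and PBS libraries of a number on day 1. All lines of the upper panels rise from PBS to NEO and all lines of the lower panels fall, while the libraries of a number lie high or low in both arms.

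Other called genes were at much higher levels, and differences above 2-fold were not confined to low levels. A gene higher in NEO had a mean of 148.6 CPM in NEO and 39.8 CPM in PBS on day 1. Its log2 difference was 1.71 ± 0.29 (SE, edgeR adjusted p = 0.0364, paired), with 0.42, 2.13 and 2.45 in numbers 1, 2 and 3. This gene and 5 more are described without their identifiers, picked after their values were seen. The gene with the smallest p of all, lower in NEO, had 45.2, 66.1 and 42.8 CPM in NEO and 97.0, 130 and 85.4 CPM in PBS on day 1. The groups did not overlap, and PBS was 2.14, 1.96 and 1.99 times as high in the 3 pairs. Its log2 difference was -1.02 ± 0.08 (SE, edgeR adjusted p = 0.00153, paired). On day 0 the same gene ranged from 0.0987 to 218 CPM, a spread that the day 1 libraries did not have.

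The gene with the smallest p among those higher in NEO, picked by the paired fit itself, had a much smaller error with the pairing. It had 543, 583 and 31.9 CPM in NEO and 351, 329 and 19.6 CPM in PBS, so that number 3 was far lower in either arm, with a 17.4-fold span over the numbers, and the groups overlapped. Within the numbers the ratio of NEO to PBS was 1.55, 1.77 and 1.62. The log2 difference was 0.72, with a standard error of 0.09 in the paired fit and 1.19 in the unpaired fit. Its edgeR adjusted p was 0.0127 paired and 0.931 unpaired.

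In the called gene of highest level in each direction the difference was below 2-fold on average. The called gene of highest level among those higher in NEO had 572, 555 and 307 CPM in NEO and 335, 278 and 245 CPM in PBS, with a log2 difference of 0.70 ± 0.12 (SE, edgeR adjusted p = 0.0364, paired). NEO number 3 lay below PBS number 1. The highest among those lower in NEO had 309, 102 and 378 CPM in NEO and 439, 263 and 558 CPM in PBS, with a log2 difference of -0.81 ± 0.14 (SE, edgeR adjusted p = 0.0384, paired). The groups overlapped here as well. In this gene PBS was 2.58 times as high in number 2 and 1.42 and 1.47 times in numbers 1 and 3.

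Genes that differed with the lung number were frequent among the called genes. The pair means of the 3 numbers spanned at least 2-fold for 21 of the 78, against 11% of all genes tested. One gene, called higher in NEO, spanned 37.8-fold, with 13.0, 34.1 and 0.401 CPM in NEO and 3.45, 12.2 and 0.385 CPM in PBS. It differed by 3.67-fold and 2.77-fold in numbers 1 and 2 and by 1.03-fold in number 3, from log2 CPM with a prior count of 2. In number 3 both values were not far above the floor, 0.235 CPM in NEO and 0.194 CPM in PBS. No counting interval was taken for that ratio or for the span. A set of 249 tested genes was at least 2-fold lower in number 3 than in the mean of numbers 1 and 2 in both arms, at a mean of at least 10 CPM on day 1. They took 1.87%, 2.53% and 0.325% of the counts in NEO and 1.39%, 1.93% and 0.325% in PBS. Of these, 7 were called higher in NEO and 0 lower, or 2.81% against 0.646% of all genes tested, and 76.7% were higher in NEO by sign against 50.6%. The median log2 difference was 0.36 in number 1, 0.37 in number 2 and -0.11 in number 3. Their higher sum in NEO thus stood in numbers 1 and 2 alone.

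The genes that changed between the days were then compared between the arms on day 1. Genes were grouped by the day effect averaged over both arms, in a fit of all 12 libraries (edgeR, Benjamini-Hochberg adjusted p under 0.05). This grouping weights the arms equally, but it shares the day 1 libraries with the comparison. Genes that rose on day 1 tended to lie slightly lower in NEO, and genes that fell tended to lie slightly higher. Of 2350 risers 27.8% were higher in NEO, and of 2519 fallers 77.9% were, where 50.6% of all genes were. The median log2 difference was -0.11 among the risers and 0.12 among the fallers. The risers took 21.7%, 20.5% and 23.3% of all counts in NEO and 23.3%, 23.3% and 23.9% in PBS. The fallers took 26.6%, 28.5% and 25.5% in NEO and 24.8%, 25.4% and 24.4% in PBS, with no overlap. For the risers NEO number 3 reached the level of PBS. On day 0 the shares were 14.2% ± 0.436 and 14% ± 0.282 for the risers and 35.8% ± 1.16 and 36% ± 0.613 for the fallers (NEO and PBS, SD, n = 3).

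The size of this shift depended on the lung number. In number 2 the medians were -0.20 for the risers and 0.20 for the fallers, in number 1 -0.11 and 0.11, and in number 3 -0.02 and 0.06. All 3 pairs had the same signs, and number 3 was close to 0. The steepest group, 340 genes that rose at least 4-fold, had a median of -0.14, with -0.01, -0.32 and -0.07 in numbers 1, 2 and 3. These genes took 1.75% ± 0.184 of the counts in NEO and 1.99% ± 0.117 in PBS (SD, n = 3). The 2 groups of values overlapped, as NEO number 1 stood at 1.90% and PBS number 3 at 1.87%. Among genes not called for the day the median was -0.00647.

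**Figure D4:**
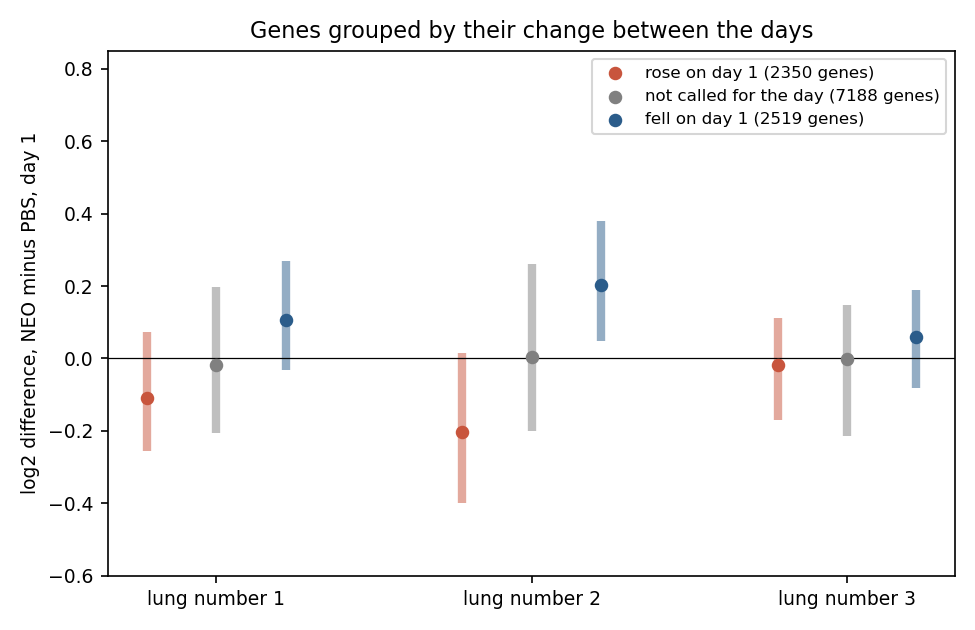
For each lung number on the x axis, points give the median and bars the middle 50% of genes of the log2 difference of NEO minus PBS on day 1, for genes that rose on day 1, did not pass the test for the day, or fell. Medians of the risers lie below 0 and those of the fallers above 0 in all 3 numbers, with -0.20 and 0.20 in number 2 and -0.02 and 0.06 in number 3. The bars of both groups overlap in numbers 1 and 3 and not in number 2.

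The called genes were also set beside the day response. Of the 28 genes lower in NEO, 14 rose between the days and 0 fell, and their median day effect was 0.59. Of the 50 genes higher in NEO, 10 rose and 15 fell, with a median day effect of -0.05. Over all genes present in both fits (12057), 19.5% rose and 20.9% fell. Read against the risers and fallers themselves, 1.02% of the risers were called between the arms (10 higher, 14 lower) and 0.595% of the fallers (15 higher, 0 lower). Among genes not called for the day the share was 0.543%, and over all genes tested it was 0.646%, so the fallers' share was near the background.

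Day 0 gave a view of the same genes in other libraries. NEO day 0 number 1 stood apart from every other library of its day, with a chi-square per degree of freedom of 73.7 to 95.2 against 5.07 to 18.6 among the rest, so values are given with and without it. Of the 50 genes called higher on day 1, 41 were also higher in NEO on day 0, where 50.7% of all genes were, with a median day 0 log2 difference of 0.74. Of these 50 genes, 22 had an unadjusted p under 0.05 on day 0 in that direction, and 1 in the other, where 8.70% of all genes tested had such a p. Without NEO number 1 of day 0 these counts were 20 and 3, against 9.34% of all genes. Without NEO number 1 of day 0, 30 of the 50 were higher (47.8% of all genes) and the median was 0.12. Library by library, the 50 genes had a median of 1.02 above the PBS mean in NEO number 1, 0.23 in number 2 and 0.14 in number 3. Their values were above all 3 PBS libraries for 38, 30 and 25 of the 50 genes, where 39.9%, 26.3% and 33.3% of all genes were. As a share of counts they took 0.916%, 0.586% and 0.509% in NEO and 0.445%, 0.489% and 0.421% in PBS on day 0, and the groups did not overlap.

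Of the 28 genes called lower on day 1, 18 were also lower in NEO on day 0, where 49.3% of all genes were, with a median of -0.06. Without NEO number 1, 16 of the 28 were lower (52.2% of all genes), with a median of -0.03. None of the 28 was lower on day 0 at an unadjusted p under 0.05, and 2 were higher. Without NEO number 1, 5 of the 28 passed that p, 1 of them lower in NEO. The difference between the 50 and the 28 genes on day 0 was not tested. They took 0.208%, 0.119% and 0.117% of the counts in NEO and 0.133%, 0.128% and 0.133% in PBS on day 0, so that the arms overlapped. Over all genes, NEO against PBS on day 0 gave 0 calls in edgeR's 12-library model, which kept the day 1 pairing, with 1083 genes (8.70%) at an unadjusted p under 0.05. DESeq2 called 131 and limma voom 0 with the same terms. Without NEO number 1 of day 0, an alternative chosen after seeing the data, edgeR called 84 of 12745 genes.

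**Figure D5:**
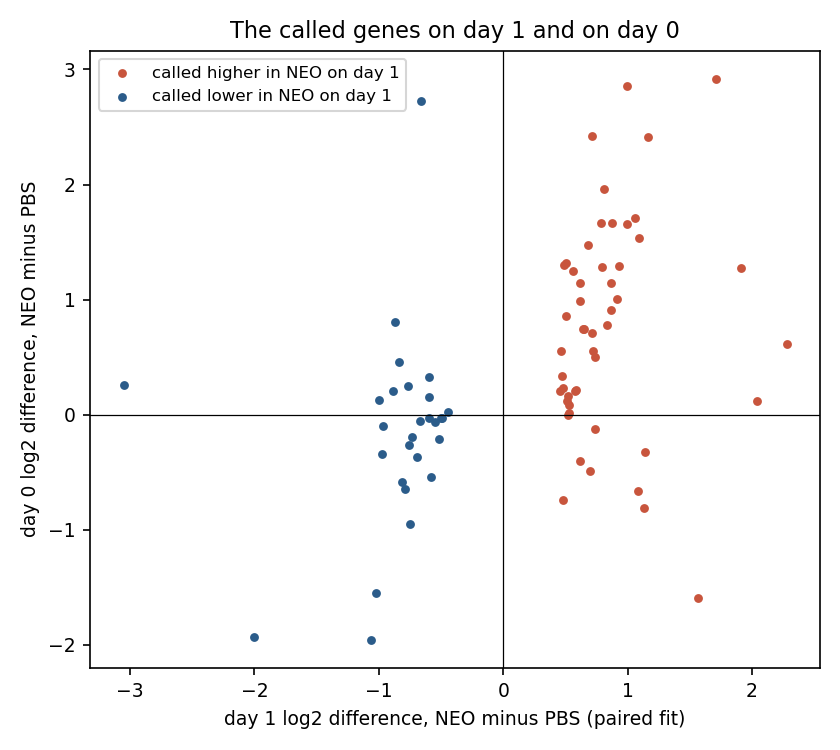
Each point is 1 of the 78 called genes, with its day 1 log2 difference of NEO minus PBS from the paired fit on the x axis and its day 0 log2 difference from the fit of all 12 libraries on the y axis. Of the 50 genes higher on day 1, 41 lie above 0 on the y axis, and of the 28 lower genes 18 lie below it.

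Whether the NEO effect of day 1 differed from that of day 0 was tested directly. By edgeR 0 of 12449 genes were called for the difference of the effects, with the lung number as a pair within day 1. There were 915 genes (7.35%) with an unadjusted p under 0.05, and the smallest adjusted p was 0.615. DESeq2 called 26 genes, 2 of them among the 78, and limma voom 0. The median standard error of this difference was 0.26, and a 2-fold difference lay outside the 95% interval for 58.0% of the genes. Among the 78 genes, 11 of the 50 higher and 8 of the 28 lower had an unadjusted edgeR p under 0.05. The day 1 difference that chose these genes is also part of this contrast, so nothing is read from these counts. ENSRNOG00000017786 had a difference of effects of -3.55 ± 0.70 (SE) and an edgeR adjusted p of 0.615. It was 1 of the 2 genes called by DESeq2 (-3.59 ± 0.80, adjusted p = 0.00895). The other was also lower in NEO on day 1 (difference of effects -1.65 ± 0.39, DESeq2 adjusted p = 0.0207, edgeR adjusted p = 0.615). With NEO day 0 number 1 left out, edgeR called 25 genes, 16 with a more positive NEO effect on day 1 and 9 with a more negative one. Of the 25, 2 were among the 78, both lower in NEO on day 1, with differences of effects of -0.71 ± 0.12 and -1.59 ± 0.26 (SE, edgeR adjusted p = 0.0497 for each). With all libraries, edgeR thus called none of the 78 genes for a different NEO effect on the days.

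The number of calls moved widely with single pairs. Leaving out both libraries numbered 1, 2 or 3 gave 36, 121 and 1208 calls. Without number 2 the smallest edgeR adjusted p was 4.5e-63, against 0.00036 and 0.00166 without numbers 1 and 3. Yet only 928 genes had an unadjusted p under 0.05 there, against 2080 in the main fit. The 121 calls are thus not directly comparable. Of the 78 genes, 22, 65 and 78 were called again in the 3 fits, and all 78 had the same direction in each. These fits reuse the libraries that chose the genes, and each of the 78 already had the same direction in every pair. The agreement in direction was thus largely fixed in advance, and nothing is read from it. The calls without number 3 were 633 higher and 575 lower in NEO. With every day 1 library thinned to the depth of the shallowest, an alternative chosen after seeing the data, 175 genes were called and 77 of the 78 were among them.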

How the data were processed

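RNA of sorted T cells was sequenced in 12 libraries, and the authors deposited 1 table of raw counts of reads per gene for each. The tools named per the submitters' processing notes are featureCounts 1.5.0-p1, bcl2fastq 2.17.1.14 and STAR 2.5.2a. The build named there is rn6. Not given in the sources used here are the annotation release, the strand setting and the treatment of reads matching several genes. Gene names could not be added, so the gene lists prepared for this comparison were not used. Only the part of the naming rule on the largest differences among called genes was applied, without symbols, to 2 identifiers a direction. The part on the smallest p was not used to give identifiers. The comparison, the pairing and the lists were chosen with earlier results of these data known. The tests ran in edgeR 4.0.16 under R 4.3.3 (filterByExpr, TMM, glmQLFit, glmQLFTest), with lung number and treatment as terms for the 6 day 1 libraries. All 12 libraries, with 4 group means and lung number within day 1, served for the difference of the effects, the day 0 values and the day effect. A gene was called when its p, adjusted by Benjamini-Hochberg, was under 0.05. Standard errors are the log2 difference divided by the square root of F. CPM were scaled by TMM over 12 libraries, and log2 CPM used a prior count of 2. Same-numbered deviations on day 1 correlated above 0.1 in all 3 pairs, which is where the pairing comes from. NEO 1 with PBS 2 (0.329) and NEO 2 with PBS 1 (0.32) also exceeded 0.1, so this mark does not single out same-numbered libraries. On day 0 the same-numbered correlations were -0.0652, 0.0990 and 0.0966, so day 0 was not paired. No 2 day 1 libraries agreed within sampling noise (chi-square per degree of freedom 9.60 or more). Replicates are libraries, whose spread may be technical. Alternatives used DESeq2 1.42.0, limma 3.58.1, other scalings and filters, and left-out libraries. The scripts were tested on data simulated from the paired model, which cannot check whether the pairing holds.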

Additional observations from a re-analysis of the deposited data

How the results depend on the processing

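The count of 78 called genes (50 higher and 28 lower in NEO) depended on the model more than on the scaling. It was 81 (53 and 28) with DESeq2's size factors and 85 (54 and 31) with upper-quartile factors in the paired edgeR fit. With the replicate block taken out it was 0, both for the 6 day 1 libraries and for all 12. It was also 0 for all 12 libraries with the block within day 1, and 0 in the unpaired fits that left out 1 day 1 library each, with 323 to 2099 genes at an unadjusted p under 0.05. With the block, DESeq2 called 214 (113 and 101) and limma voom 246 (161 and 85). The paired edgeR fit called 757 (392 and 365) without a low-count filter and 150 (94 and 56) with at least 50 counts in 3 libraries. Without the filter the smallest edgeR adjusted p was 9.56e-52, against 0.00153 in the main fit, so the 757 calls are not directly comparable. Thinned libraries, an alternative added after seeing the data, gave 175 (107 and 68). DESeq2 without the block, also added later, called 30 (17 and 13), and limma voom without it 0. Leaving out a pair gave 36 to 1208 calls (26 to 633 higher, 10 to 575 lower). The cause of these shifts was not tested. DESeq2 with the block called 62 of the 78 and gave 12 of them no adjusted p, among them the 4 named identifiers. The split of calls was 64.1% higher in NEO, 52.8% by DESeq2, 51.8% without the filter and 52.4% without number 3.

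For the difference of the NEO effects between the days, the count of 0 was also 0 without the replicate block and in 8 of 9 fits lacking a library or a pair. It was 25 without NEO day 0 number 1, 26 by DESeq2 and 5 without the low-count filter, the last added later. The direction of ENSRNOG00000019846 turned in the unpaired fit without PBS day 1 number 2 (0.895). The other 3 identifiers kept their direction in every alternative that gave them a value, but these alternatives reuse the libraries that chose them. The medians of the risers ran from -0.171 to -0.0587 and those of the fallers from 0.0782 to 0.163 over 21 alternatives. Depth limits the genes of low level, where NEO number 1 was the shallowest library. The medians of gene lists planned as alternatives were not run, for want of names.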
